A study of Mus musculus with 6 samples.

Results

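The genes of oxidative phosphorylation were followed in mouse embryonic stem cells in which the level of Ago2, an Argonaute protein through which microRNAs act on transcripts, is set by doxycycline. Genes were taken by symbol: nuclear genes whose names begin with Ndufa, Ndufb, Ndufc, Ndufs or Ndufv, Uqcr, Cox4 to Cox8 or Atp5, the genes Sdha, Sdhb, Sdhc, Sdhd and Cyc1, and the protein-coding genes of the mitochondrial genome. This gave 106 genes of the 31310 gene symbols with a usable transcript, of which 93 are nuclear and 13 mitochondrial. The 4 libraries compared came from TT-FHAgo2, a clonal line of mouse embryonic stem cells with doxycycline-controlled Ago2, kept in 0.1 µg/mL doxycycline, with serum and leukemia inhibitory factor in the medium. One group was raised to 2.5 µg/mL doxycycline for 48 h, which the labels call wild-type Ago2 levels, and the other was taken off the drug for 96 h. Each group had 2 strand-specific polyA libraries, made by what the labels name the UTP method. The samples with spike-in RNA, 1 of embryonic and 1 of mesenchymal stem cells, were not analysed here. The groups differ in both the drug and the hours, and these cannot be told apart. Nothing in the labels ties the libraries of a group to separate cultures, so a p-value measures only the spread between these libraries.

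Oxidative phosphorylation passes electrons from food through complexes I to IV of the inner mitochondrial membrane to oxygen, and the proton gradient so built drives ATP synthesis by complex V. Complex I takes electrons from NADH, complex II from succinate, complex III hands them to cytochrome c, and complex IV, cytochrome c oxidase, gives them to oxygen. Most subunits are encoded in the nucleus and imported. The mitochondrial genome encodes the remaining, very hydrophobic subunits, is transcribed from both strands into long precursors, and lacks introns. Embryonic stem cells are known for a high rate of glycolysis beside a working respiratory chain.

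Levels are FPKM, fragments scaled by transcript length and by the mapped fragments of the library, summed over the isoforms of a gene, and so are scaled by length. Changes are log2(FPKM + 0.5) without minus with doxycycline, a scale on which changes of weakly expressed genes look smaller than they are, and are given with their standard error (SE). A gene was called higher or lower where the adjusted p of limma, fitted across the 13207 genes whose mean reached 1 FPKM with or without the drug, was under 0.05. With 2 libraries against 2, an exact permutation test of a single gene cannot go below p = 0.333. The depth of the number 1 libraries could be read from the steps of low values, at 46.5 M fragments with and 46.7 M without doxycycline, and the depth of the number 0 libraries could not. Ago2 itself, named Eif2c2 in the files, measured 35.2 and 36.7 FPKM with doxycycline and 28.7 and 28.8 FPKM without. The log2 change was -0.32 (SE 0.079, limma adjusted p = 0.0287), so RNA listed under this name was lower but far from absent. These values do not show how much of that RNA came from the doxycycline-controlled Ago2. All 8 embryonic stem cell markers passed the filter, 3 lower and 1 higher, with sums of 3874 to 4612 FPKM per library. Of 8 fibroblast or mesenchymal markers 1 passed the filter, with sums of 2.36 to 2.97 FPKM, and Col3a1 and Postn were listed at 0 in all libraries. None of 8 muscle markers passed it (sums of 1.47 to 2.21 FPKM), and 2 of 8 germ layer markers did (sums of 5.11 to 7.56 FPKM), with Gata4 higher. The part of these markers in the results was not tested.

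Among the nuclear genes, falls outnumbered rises. Of the 93, 88 passed the filter, and of these 23 were lower, 4 higher and 61 not called without doxycycline. Called in either direction were 30.7% of the nuclear genes, against 41.0% of all genes tested. The lower calls made up 26.1% of them against 21.3% of all genes, and the higher calls 4.5% against 19.7%. The median log2 change was -0.18, with 66 of 88 values below 0, beside -0.06 for all genes tested, of which 54.6% were below 0. In bulk RNA, fewer cells of a type and less RNA per cell cannot be told apart. The balance of the calls moved with the scaling. When the values were rescaled to TPM, which gives every library the same total, the median of all genes moved from -0.06 to 0.10 and that of the nuclear genes from -0.18 to -0.00, with 11 higher and 12 lower calls. With library medians set equal there were 2 higher and 37 lower calls, and the median of all genes was -0.12. Relative to the median of all genes, the nuclear genes sat at -0.12 as deposited, -0.10 in TPM and -0.12 with equal medians. Across all genes the calls split into 2608 higher and 2809 lower as deposited, 3996 and 1917 in TPM, and 2366 and 3853 with equal medians. None of the 27 genes was called in the opposite direction in any of the 17 alternatives, and Sdhd, Cox7a1 and Cox7b were called in all of them. Calls depended on single libraries. Without library 0 or 1 of the doxycycline group, 11 and 7 nuclear genes were called, and without library 0 or 1 of the other group 14 and 23 were. Those called in all 4 of these fits were Cox7a1, Cox7a2l, Cox7b, Ndufaf4, Sdhd and Uqcrq.

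**Figure D1:**
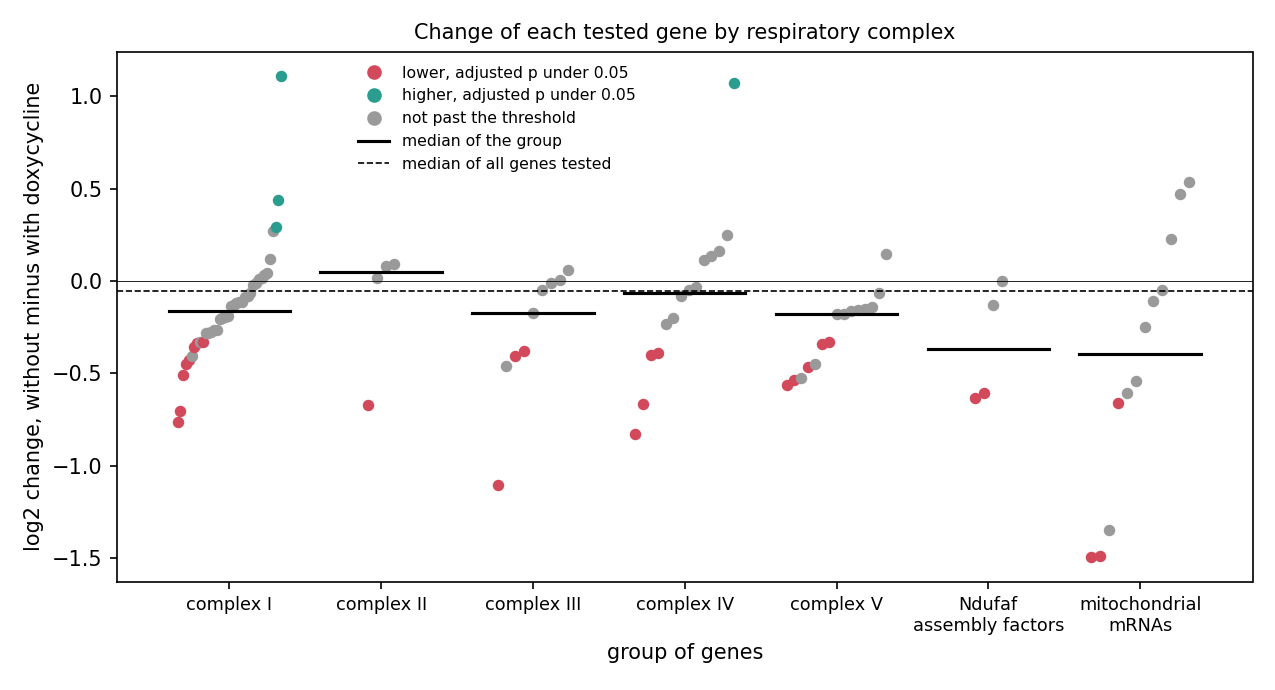
Log2 change of each tested gene (y axis, without minus with doxycycline, n = 2 libraries a group) by complex (x axis). The last column holds the mitochondrial mRNAs. Each point is a gene, coloured by its call, the bar is the median of its group and the dashed line the median of all genes tested. Values as low as -1.11 in complex III stand beside values as high as 1.11 in complex I (Ndufa4l2, counted there by name). In TPM the median of complex IV is above 0, at 0.12.

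Complex I, NADH dehydrogenase, has 38 nuclear genes counted by name here, Ndufa4 and Ndufa4l2 included. All 38 passed the filter, 8 were lower, 3 higher and 27 not called, and the median log2 change was -0.16 as deposited and -0.00 in TPM, where 5 were higher and 3 lower. The largest fall was that of Ndufc1, a small accessory subunit of the membrane arm. It measured 46.1 and 43.7 FPKM with doxycycline and 21.6 and 31.9 FPKM without, a log2 change of -0.76 (SE 0.189, limma adjusted p = 0.0289). Both libraries without the drug lay below both with it, and they differed from each other by more than the doxycycline libraries did. Ndufb10, another accessory subunit of the membrane arm, measured 69.8 and 81.3 FPKM with doxycycline and 41.3 and 51.6 FPKM without (-0.70, SE 0.142, limma adjusted p = 0.0166). The groups did not overlap here either. Ndufa7, an accessory subunit and among the most abundant complex I transcripts, measured 256 and 282 FPKM with doxycycline and 175 and 204 FPKM without (-0.51, SE 0.115, limma adjusted p = 0.0223). Ndufa4, which has since been assigned to complex IV, was the most abundant under these names, with 340 and 384 FPKM with and 291 and 341 FPKM without doxycycline. Its values overlapped between the groups and it was not called (-0.20, SE 0.124, limma adjusted p = 0.249). The other lower genes, Ndufa12, Ndufa5, Ndufb3, Ndufb6 and Ndufs1, changed by -0.45 to -0.33, with limma adjusted p of 0.0251 to 0.0367. All of these calls were lost in TPM (limma adjusted p of 0.0733 to 0.22). Ndufs1, which holds iron-sulfur clusters of the electron path, fell from 66.5 ± 0.789 to 52.8 ± 0.389 FPKM (SD, n = 2), a small change between libraries that lay close together, and was not called in any of the 4 fits without a library.

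The higher genes under the complex I names were of very unequal level. Ndufs8, an iron-sulfur subunit of the electron path, measured 51.9 and 51.2 FPKM with doxycycline and 63.5 and 77.1 FPKM without (0.44, SE 0.116, limma adjusted p = 0.0349). Ndufa3, a small accessory subunit, measured 111 and 103 FPKM with and 128 and 134 FPKM without (0.29, SE 0.088, limma adjusted p = 0.049). For both genes the groups did not overlap, but Ndufa3 was called in 0 and Ndufs8 in 1 of the 4 fits that left out a library. Ndufa4l2, the paralog of Ndufa4 known to be induced by low oxygen, was near the filter, at 1.06 and 0.90 FPKM with and 3.96 and 1.78 FPKM without doxycycline (1.11, SE 0.323, limma adjusted p = 0.0443). The number 1 libraries held about 31 and 62 fragments of it, and without library 0 of the group without doxycycline its change was 0.63 and not called.

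**Figure D2:**
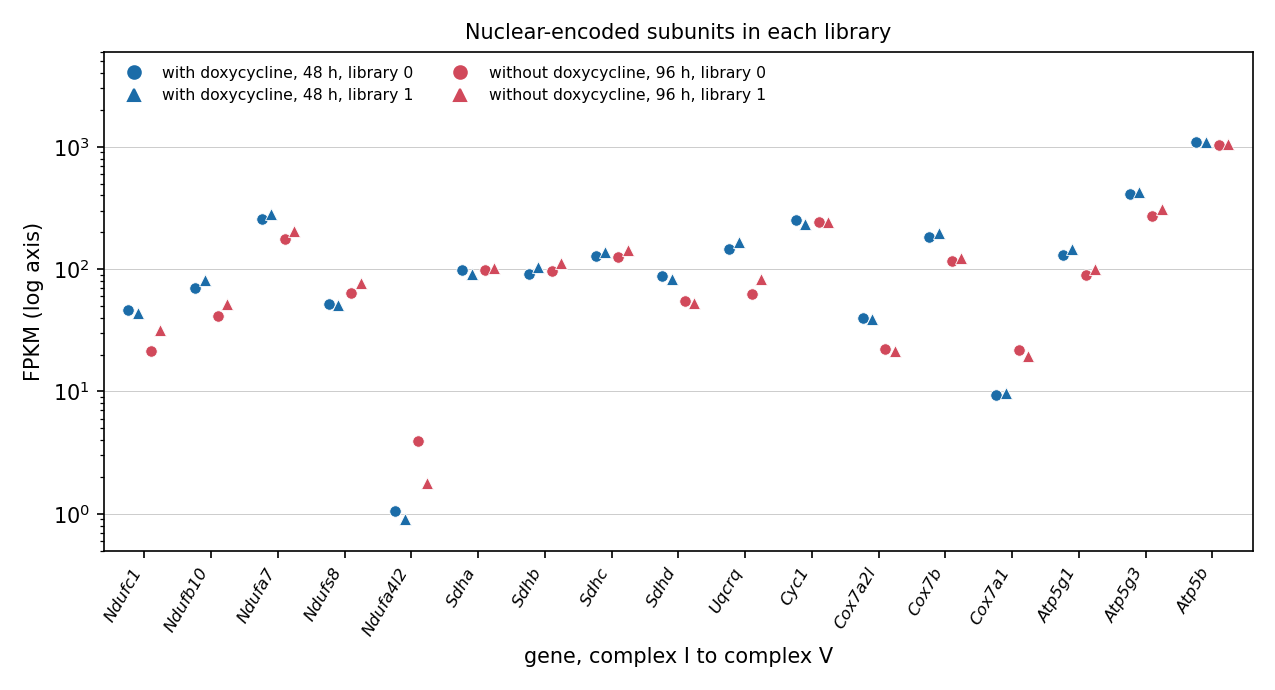
FPKM (y axis, log scale) of 17 nuclear-encoded subunits from complex I to complex V (x axis) in each of the 4 libraries. Sdhd lies at 82.8 to 88.5 with doxycycline and 52.6 to 54.4 without, while the values of Sdha, Sdhb and Sdhc overlap between the groups.

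Complex II, succinate dehydrogenase, is encoded wholly in the nucleus, and 1 of its 4 subunits changed. Sdhd, the smaller of its membrane anchors, which hold the ubiquinone site, measured 88.5 and 82.8 FPKM with doxycycline and 54.4 and 52.6 FPKM without. The log2 change was -0.67 (SE 0.084, limma adjusted p = 0.00477), and over the alternatives limma's adjusted p ranged from 0.00101 to 0.0276. The groups stood well apart, and the value came from 1 isoform of 1247 nt, the only one kept by the length and class rules. Whether reads were divided with isoforms that these rules left out was not tested. The other anchor, Sdhc, measured 128 and 137 FPKM with and 124 and 144 FPKM without doxycycline (0.02, SE 0.109). Sdha, the flavoprotein that oxidises succinate, measured 98.3 and 91.2 FPKM with and 98.0 and 102 FPKM without (0.08, SE 0.088). Sdhb, the iron-sulfur subunit between them, measured 90.6 and 104 FPKM with and 96.1 and 112 FPKM without (0.09, SE 0.122). None of these 3 was called (limma adjusted p of 0.497 to 0.922), and with TPM they sat at 0.17 to 0.25 while Sdhd stayed at -0.52. With doxycycline the levels of the 4 subunits lay between 82.8 and 137 FPKM, and Sdhd was the lowest of them in all 4 libraries.

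Sdhd lies on chromosome 9 at 50404451 to 50411922 on the minus strand of NCBIM37, and its start is shown because it was lower in all 17 alternatives. The promoter from RefSeq on GRCm38.p6, chr9:50603800-50604099 on the minus strand, runs from 250 bases before to 50 after the start, with the motif matches described further on in capitals (GCGCACGCGC for NRF1, CTTCCGG for the ETS family).
Sdhd: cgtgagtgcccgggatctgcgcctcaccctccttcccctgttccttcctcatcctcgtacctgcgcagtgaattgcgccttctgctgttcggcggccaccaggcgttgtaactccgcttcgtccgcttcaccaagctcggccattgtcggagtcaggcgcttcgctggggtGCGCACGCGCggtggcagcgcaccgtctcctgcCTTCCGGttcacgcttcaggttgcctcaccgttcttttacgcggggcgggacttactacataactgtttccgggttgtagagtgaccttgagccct
The promoter of Ndufc1, the complex I gene with the largest fall, at chr3:51408906-51409205 on the minus strand, held the YY1 motif just after its start, again in capitals.
Ndufc1: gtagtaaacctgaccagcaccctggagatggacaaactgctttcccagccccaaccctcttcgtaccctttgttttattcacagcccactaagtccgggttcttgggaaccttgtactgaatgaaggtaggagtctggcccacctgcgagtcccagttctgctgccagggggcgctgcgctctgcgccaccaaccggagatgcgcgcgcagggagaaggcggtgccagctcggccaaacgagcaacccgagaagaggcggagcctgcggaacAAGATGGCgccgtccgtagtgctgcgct

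Complex III, which oxidises ubiquinol and reduces cytochrome c, had 9 nuclear subunits tested, of which 3 were lower and 6 not called, with a median log2 change of -0.17 (-0.01 in TPM). Uqcrq, a small subunit that contacts the mitochondrially encoded cytochrome b, showed the largest fall of all nuclear genes tested here. It measured 147 and 166 FPKM with doxycycline and 62.4 and 83.7 FPKM without (-1.11, SE 0.161, limma adjusted p = 0.00683). Every library without the drug lay far below both with it, and its 3 main isoforms, of 375, 405 and 1521 nt, were each lower in both libraries without doxycycline. Uqcr, now Uqcr11, and Uqcrh, the acidic hinge protein that helps cytochrome c bind, fell by 0.41 and 0.38 (SE 0.106 and 0.107, limma adjusted p = 0.0327 and 0.0409). Both calls were lost in TPM and in 3 of the 4 fits without a library. Uqcr10, another small subunit, measured 260 and 296 FPKM with and 169 and 240 FPKM without doxycycline and was not called (-0.46, SE 0.187, limma adjusted p = 0.106). Cyc1, the cytochrome c1 subunit that passes the electron on, measured 252 and 234 FPKM with and 242 and 241 FPKM without (-0.01, SE 0.09, limma adjusted p = 0.952), so the groups overlapped.

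Complex IV had 18 nuclear genes under these names, of which 14 were tested, with 4 lower, 1 higher and 9 not called. Its median log2 change was -0.06 as deposited and 0.12 in TPM, where 5 were higher and 2 lower. Cox7a2l, known as the factor that joins complexes III and IV into supercomplexes, measured 39.9 and 38.8 FPKM with doxycycline and 22.4 and 21.5 FPKM without (-0.83, SE 0.08, limma adjusted p = 0.00269). The sum was very even between libraries, but its isoforms of 1019 and 1064 nt were not: the first was at 20.2 and 4.33 FPKM with and 5.21 and 2.07 FPKM without. The isoform of 1064 nt alone changed by -0.48 and was not called, with adjusted p up to 0.28. Cox7b, a small subunit needed for the assembly of the complex, measured 183 and 197 FPKM with and 116 and 124 FPKM without (-0.66, SE 0.093, limma adjusted p = 0.00625). Cox6c and Cox7a2, both small subunits, fell by 0.40 and 0.39 (SE 0.089 and 0.093, limma adjusted p = 0.0214 and 0.0265), and both calls were lost in TPM. Cox4i1, the largest nuclear subunit and the most abundant of the complex, stood at 844 and 856 FPKM with and 779 and 831 FPKM without doxycycline and was not called (-0.08, SE 0.099, limma adjusted p = 0.551).

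Several complex IV subunits exist as paralogs, of which some are known from muscle, lung or testis. Cox7a1, the heart and skeletal muscle form of subunit 7a, was the only higher gene of complex IV. It measured 9.41 and 9.72 FPKM with doxycycline and 21.9 and 19.5 FPKM without (1.07, SE 0.095, limma adjusted p = 0.00242), about 83 and 171 fragments in the number 1 libraries. The groups stood apart in the direction opposite to Cox7a2, which went from 272 and 249 FPKM to 202 and 196 FPKM and remained the more abundant. Cox7a1 lies on chromosome 7 at 30969190 to 30971047 of NCBIM37, a single transcript of 364 nt. The markers of muscle cells were below the filter, as given above, and their part in this result was not tested. The other muscle forms of the complex were too low to be tested. Cox6a2 was at 0.351 and 0.603 FPKM with and 0 and 0.0843 FPKM without doxycycline, and Cox8b was listed at 0 in 3 libraries and at 0.381 FPKM in the other. Both were below the filter, as were Cox7b2 (0.476 to 1.11 FPKM) and Cox8c (0.0757 to 0.643 FPKM). The lung form Cox4i2 was near 1 FPKM and not called (0.506 to 1.54 FPKM). In contrast, Cox6b2, known as a testis form, was at 66.5 and 66.1 FPKM with and 72.1 and 86.3 FPKM without doxycycline, beside 341 and 323 and then 357 and 374 FPKM for Cox6b1. Neither Cox6b gene was called as deposited, and both were higher in TPM (0.41 and 0.30, limma adjusted p = 0.0156 and 0.0398), as was Cox6a1 (0.32, limma adjusted p = 0.0295). Cox8a, at 421 to 496 FPKM, was not called.

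**Figure D3:**
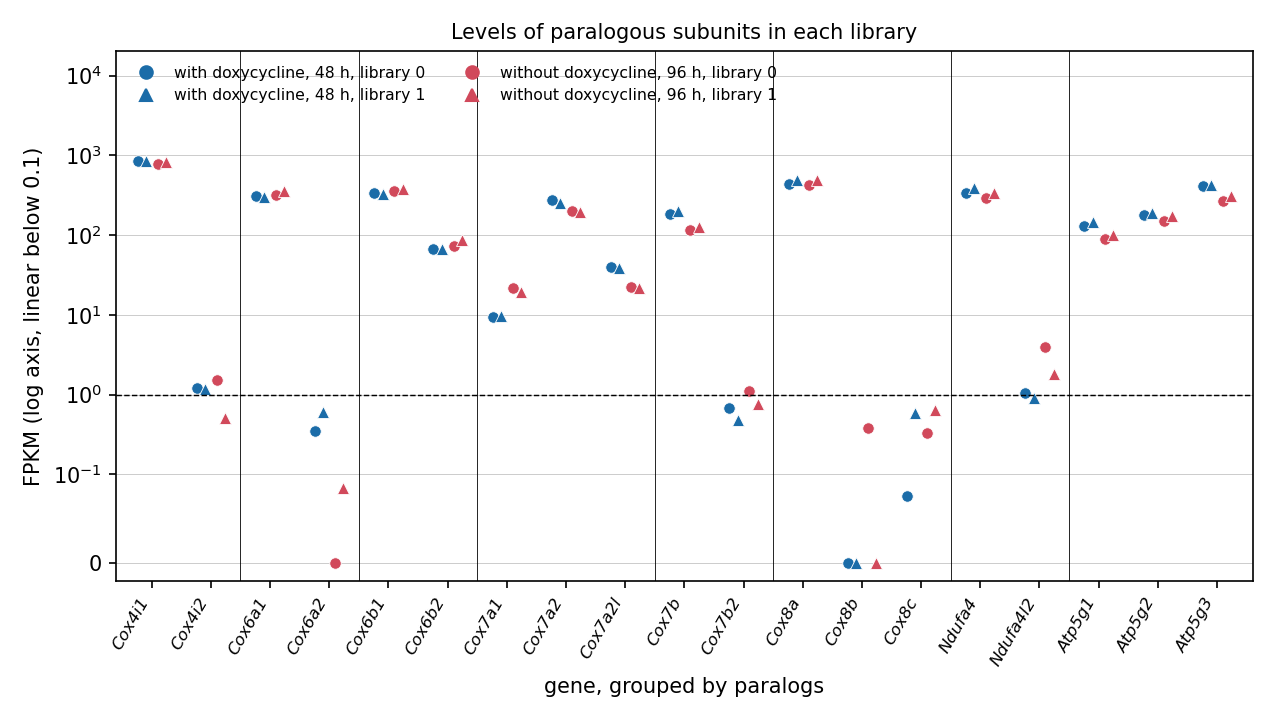
FPKM (y axis, log scale, linear below 0.1) of 19 paralogous subunits in each of the 4 libraries (x axis, paralog groups separated by lines). The dashed line marks the filter of 1 FPKM, below which Cox6a2, Cox7b2, Cox8b and Cox8c lie in their means, and Cox7a1 rises from 9.41 and 9.72 to 21.9 and 19.5 while Cox7a2 falls.

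Complex V, ATP synthase, had 15 nuclear genes tested, of which 5 were lower and 10 not called, with a median log2 change of -0.18 and -0.02 in TPM. The c ring, through which protons pass, is built from a protein encoded by Atp5g1, Atp5g2 and Atp5g3, which differ in their import sequences. Atp5g1 measured 131 and 147 FPKM with doxycycline and 89.0 and 99.3 FPKM without (-0.56, SE 0.107, limma adjusted p = 0.0138). Atp5g3, the most abundant, measured 412 and 428 FPKM with and 269 and 312 FPKM without (-0.54, SE 0.11, limma adjusted p = 0.0171). Atp5g2 measured 178 and 187 FPKM with and 150 and 174 FPKM without and was not called (-0.18, SE 0.107, limma adjusted p = 0.228), and whether it differs from its paralogs was not tested. Order was kept in every library, with Atp5g3 above Atp5g2 and Atp5g2 above Atp5g1. Atp5l, Atp5j and Atp5k, small subunits of the membrane part and stalk, fell by 0.46, 0.34 and 0.33 (SE 0.132, 0.084 and 0.084, limma adjusted p = 0.0418, 0.0276 and 0.0315). The calls of Atp5j and Atp5k were lost in TPM (limma adjusted p = 0.144 and 0.101). The pseudogene Atp5l-ps1, which shares sequence with Atp5l, was below the filter at 0.462 to 0.919 FPKM. Another pseudogene of this name, Atp5l2, was at 7.41 to 16.8 FPKM and not called (-0.54), and how reads were divided between these copies and Atp5l is uncertain. Atp5e, the epsilon subunit, measured 162 and 209 FPKM with and 102 and 161 FPKM without and was not called (-0.52, SE 0.247, limma adjusted p = 0.146). The catalytic subunits were the most abundant of the complex and were not called. Atp5b, the beta subunit, stood at 1092 and 1083 FPKM with and 1031 and 1049 FPKM without doxycycline (-0.06, SE 0.098, limma adjusted p = 0.62). Atp5a1, the alpha subunit, stood at 577 and 562 FPKM with and 621 and 639 FPKM without (0.15, SE 0.093, limma adjusted p = 0.257), and was called higher in TPM (limma adjusted p = 0.0347).

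The name rule also took 4 assembly factors of complex I, of which 2 were lower. Ndufaf4 measured 32.7 and 38.9 FPKM with doxycycline and 23.2 and 22.4 FPKM without (-0.63, SE 0.109, limma adjusted p = 0.0106). Ndufaf2 measured 59.8 and 68.0 FPKM with and 39.8 and 43.8 FPKM without (-0.61, SE 0.105, limma adjusted p = 0.0107). Ndufaf3 was at 6.09 to 7.98 FPKM and not called, and neither was Ndufaf1. Atp5s, Atp5sl (now Dmac2) and Cox4nb (now Emc8) match the name rule but were not counted as subunits here. They and the pseudogene Atp5l2 were tested and not called. Without these genes, the subunits of complexes I to V numbered 80 tested, 21 lower, 4 higher and 55 not called, with a median of -0.17.

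The summed level of the 93 nuclear genes was 13472 and 13984 FPKM with doxycycline and 11637 and 12941 FPKM without. This was 2.65%, 2.61%, 2.59% and 2.67% of the FPKM of all transcripts used, in the same order, so the share did not separate the groups. The sum of all transcripts used was itself lower without doxycycline, at 449360 and 485192 against 508954 and 535107 FPKM.

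These transcripts are short, and the change of a gene moved with the length of its transcripts in these libraries. The length of a gene, weighted by the FPKM of its isoforms, had a median of 685 nt in the nuclear genes and 2366 nt in all genes tested. All genes of 400 to 600 nt had a median log2 change of -0.33 and those of 4000 nt and over 0.10. Within 400 to 600 nt the 27 nuclear oxidative phosphorylation genes had a median of -0.26 (8 lower), beside -0.33 for the 514 genes of that length, of which 32.9% were lower. From 600 to 1000 nt the 33 had -0.18 (10 lower and 2 higher) beside -0.28 for 1170 genes, of which 32.7% were lower and 9.2% higher. From 1000 to 2000 nt the 20 had -0.06 (3 lower) beside -0.12 for 3458 genes, of which 26.4% were lower. The medians of these genes were thus nearer to 0 than those of all genes of like length in each of these bins. In the bins with 4 genes each, they were -0.02 at 200 to 400 nt and 0.06 at 2000 to 4000 nt. Spearman's rho between length and change was 0.22 over the 88 genes and 0.27 over all 13207, given as a description over genes that share the same libraries. The part of transcript length in the changes was not tested.

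**Figure D4:**
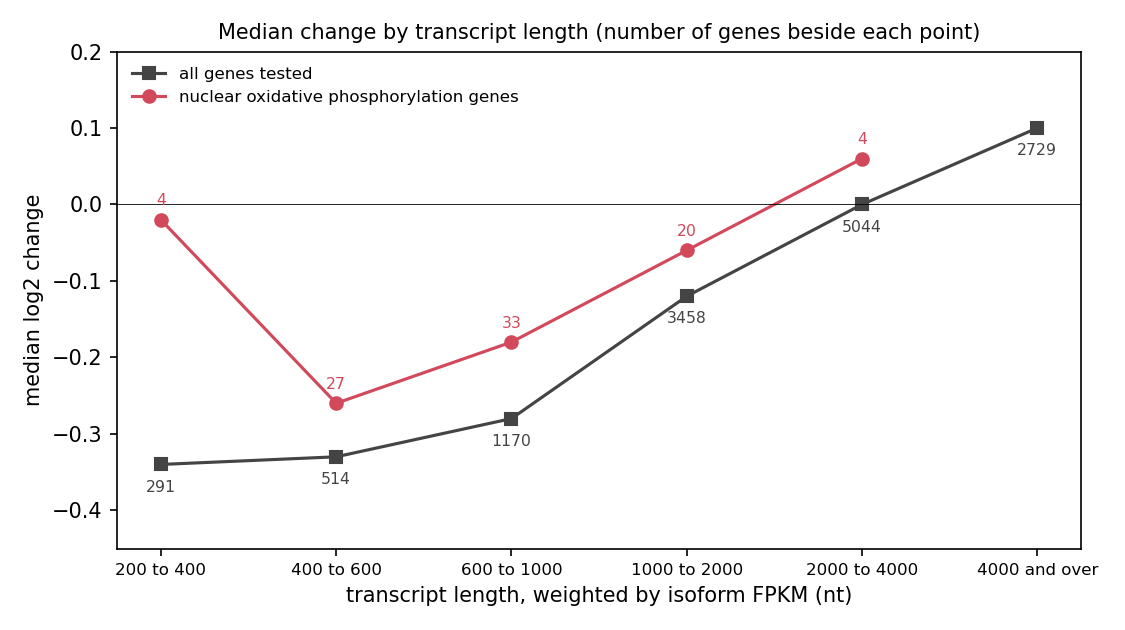
Median log2 change (y axis, without minus with doxycycline) of genes in bins of transcript length (x axis, nt), for all genes tested and for the nuclear oxidative phosphorylation genes, with the number of genes beside each point. Both lie below 0 for genes of 400 to 2000 nt, and the nuclear genes lie above all genes of the same length in every bin that holds any of them.

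The 13 mitochondrial protein-coding genes are counted here as 1 mRNA each, although overlapping genes can share an RNA. Of these, 12 were tested, and limma called 3 lower (mt-Atp8, mt-Nd3 and mt-Cytb) and 0 higher. Lower were 25.0%, beside 21.3% of all genes tested, and 25.0% were called in either direction, beside 41.0%. At an unadjusted p under 0.05 there were 5 lower and 1 higher. The median log2 change was -0.40 and -0.24 in TPM, where mt-Co1 was called higher. The genes did not move alike: 9 of the 12 values were below 0, while those of mt-Co1, mt-Co3 and mt-Nd5 were above it. The mitochondrial mRNAs summed to 40038 and 35493 FPKM with doxycycline and 33839 and 31835 FPKM without, which was 6.56% to 7.87% of the FPKM of all transcripts used and did not separate the groups.

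How the authors' assembly divides the mitochondrial genome bears on these values. Some of its protein genes overlap, and mt-Atp8 and mt-Atp6, like mt-Nd4l and mt-Nd4, cannot be taken as separately measured RNAs. The assembly also holds a transcript of 8238 nt over MT 5328 to 13565, from mt-Co1 to mt-Nd5, and another of 5016 nt over the start of the genome. The longer held 33.5% and 21.1% of the summed FPKM times length of its region with doxycycline and 29.4% and 14.7% without, so reads of a gene were divided with it differently in the number 0 and number 1 libraries. The class rule leaves these transcripts out, and an alternative chosen after seeing the data added them to each gene they cover. The overlaps are shown because they decide which gene a read can be given to. All 13 genes have the same coordinates in the files and in GENCODE release M21 of GRCm38, from which the sequences were taken, on the plus strand. mt-Atp8 and mt-Atp6 share 43 nt, chrM:7927-7969, and mt-Nd4l and mt-Nd4 share 7 nt, shown with 12 nt on each side, chrM:10155-10185. Capitals mark the start codon of the downstream gene.
mt-Atp8 and mt-Atp6: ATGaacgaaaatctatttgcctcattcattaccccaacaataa
mt-Nd4l and mt-Nd4: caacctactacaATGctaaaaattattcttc

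In the complex V genes at this overlap, mt-Atp8, a small subunit of 204 nt, measured 2713 and 2504 FPKM with doxycycline and 668 and 1278 FPKM without (-1.50, SE 0.309, limma adjusted p = 0.0176). With the spanning transcript added it measured 3992 and 3152, and 1805 and 1753 FPKM (-0.996, SE 0.152, limma adjusted p = 0.00771). The groups were apart both ways, but the length of this transcript barely exceeds the 180 and 176 nt that the FPKM calculation takes off, so its level is uncertain. mt-Atp6, the subunit that forms the proton channel, measured 628 and 775 FPKM with and 136 and 551 FPKM without (-1.35, SE 0.637, limma adjusted p = 0.147). With the spanning transcript added it was at 1907 and 1423, and 1273 and 1025 FPKM (-0.53, SE 0.191, limma adjusted p = 0.0793), and was not called either way.

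Among the 7 mitochondrial complex I genes, which encode the proton pumping core of the membrane arm, mt-Nd3 was called. Its own transcript measured 1557 and 2240 FPKM with doxycycline and 436 and 1018 FPKM without (-1.49, SE 0.423, limma adjusted p = 0.0418). With the spanning transcript added the libraries drew together, at 2836 and 2888, and 1574 and 1492 FPKM (-0.90, SE 0.109, limma adjusted p = 0.00439). The size of the fall thus depended on the spanning transcript, and the separation of the groups did not. mt-Nd1 measured 7186 and 5343 FPKM with and 4562 and 3624 FPKM without (-0.61, SE 0.205, limma adjusted p = 0.066). mt-Nd2 measured 2451 and 1858 FPKM with and 1662 and 1290 FPKM without (-0.54, SE 0.197, limma adjusted p = 0.0793). Both had groups that did not overlap and were not called, and the number 0 library was the higher of each group. mt-Nd4 measured 1597 and 1399 FPKM with and 1248 and 1271 FPKM without (-0.25, SE 0.117, limma adjusted p = 0.147). mt-Nd5, at 170 and 570 FPKM with and 276 and 739 FPKM without, differed more between the library numbers than between the groups (0.54, SE 0.701, limma adjusted p = 0.566), and with the spanning transcript added its change was -0.02. mt-Nd6, the only mRNA of the other strand, measured 2290 and 1354 FPKM with and 2795 and 956 FPKM without (-0.11, SE 0.544, limma adjusted p = 0.886). mt-Nd4l was listed at 0 in all libraries, while the spanning transcript that covers it was at 474 to 1279 FPKM.

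mt-Cytb, the cytochrome b of complex III and its only mitochondrial subunit, lies outside both spanning transcripts. It measured 3851 and 3435 FPKM with doxycycline and 2332 and 2276 FPKM without (-0.66, SE 0.122, limma adjusted p = 0.0129), with the groups well apart. Its transcripts of 1144 and 1211 nt traded places between library numbers, at 1492 and 2359 FPKM in library 0 and 3381 and 54.1 FPKM in library 1 of the doxycycline group, but the sum was even. The call was lost without library 0 of the doxycycline group (-0.58).

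Of the complex IV genes, which encode the catalytic core, none was called lower. mt-Co1 measured 4941 and 4257 FPKM with doxycycline and 6710 and 6005 FPKM without (0.47, SE 0.146, limma adjusted p = 0.0528), and its groups were apart in the direction opposite to mt-Cytb. It was called in TPM (0.63, limma adjusted p = 0.0259), and its adjusted p ranged from 0.00564 to 0.441 over all alternatives. mt-Co3 measured 5859 and 5119 FPKM with and 6692 and 6147 FPKM without (0.23, SE 0.141, limma adjusted p = 0.243). mt-Co2 was at 6795 and 6640 FPKM with and 6321 and 6681 FPKM without (-0.05, SE 0.126, limma adjusted p = 0.778), with overlapping groups. In all libraries mt-Co2 and mt-Co3 were among the most abundant mRNAs of the mitochondrial genome, at 5119 to 6795 FPKM.

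**Figure D5:**
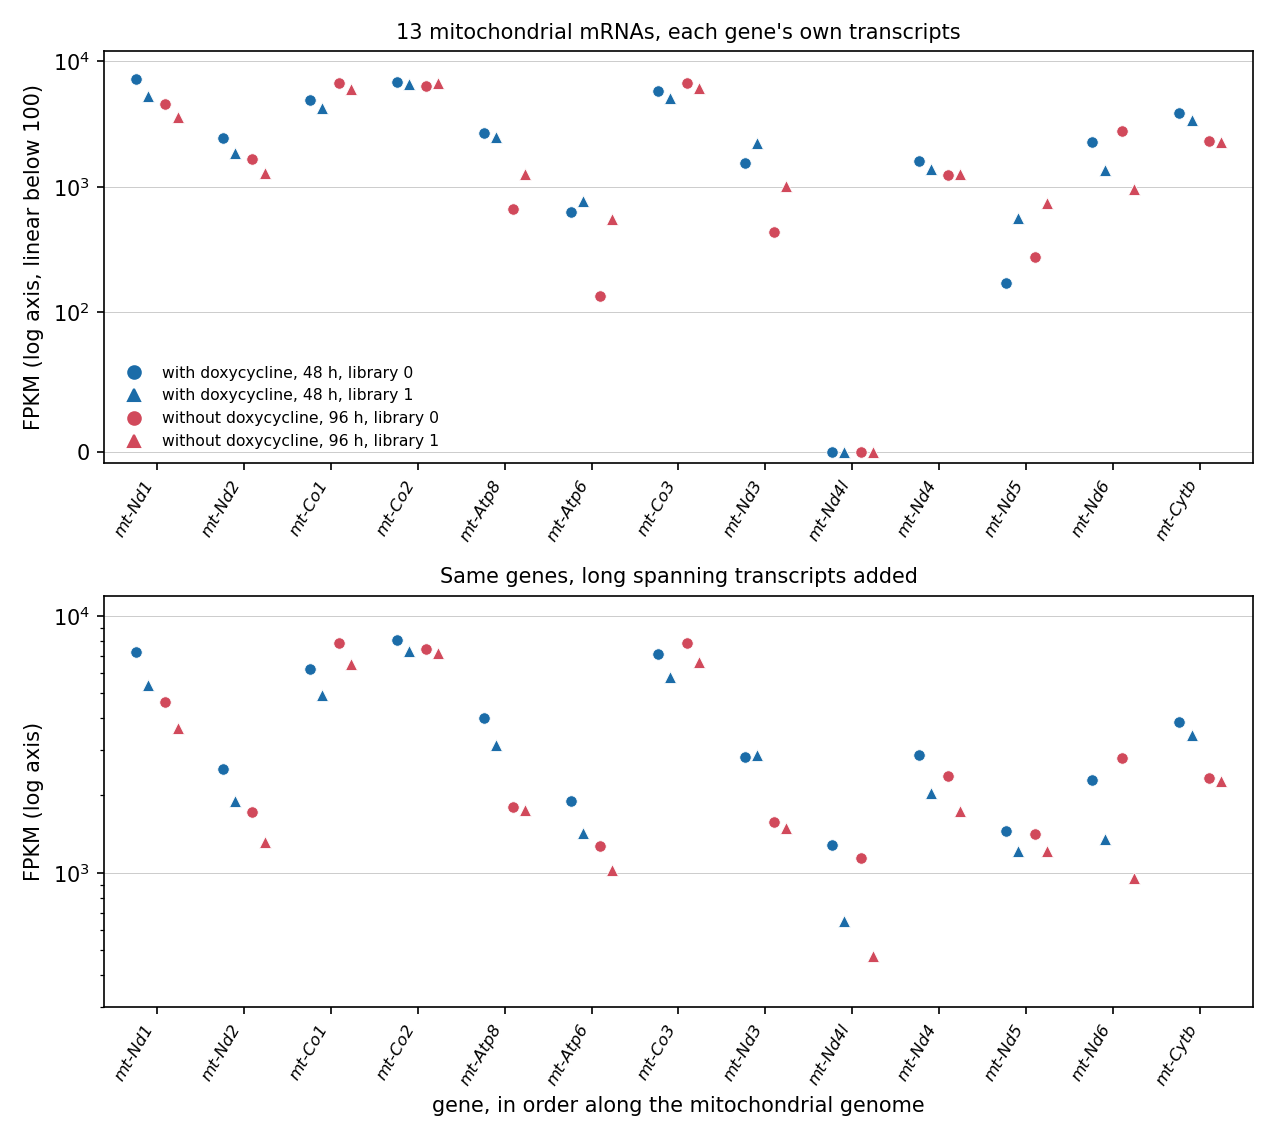
FPKM (y axes, log scale, the upper one linear below 100) of the 13 mitochondrial mRNAs in genome order (x axis) in each of the 4 libraries, from each gene's own transcripts (upper) and with the spanning transcripts added (lower). mt-Nd3 at 1557 and 2240 with and 436 and 1018 without doxycycline becomes 2836 and 2888, and 1574 and 1492, and mt-Nd4l leaves 0.

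Regulators and partners of the respiratory chain were taken from lists of names, and their counts stand beside 21.3% lower and 19.7% higher among all genes tested. For the maintenance of mitochondrial RNA, 9 of 18 tested genes (50%) were lower and 0 higher (limma; 12 lower and 0 higher at an unadjusted p under 0.05), with a median log2 change of -0.36 and -0.21 in TPM. These included Slirp (1810035L17Rik in the files), an RNA-binding protein that stabilises mitochondrial mRNAs, at 117 and 123 FPKM with and 57.9 and 78.9 FPKM without doxycycline (-0.82, limma adjusted p = 0.0149). Elac2, which cuts transfer RNAs out of the precursor, and Mtpap, the mitochondrial polyA polymerase, fell by 0.63 and 0.61 (limma adjusted p = 0.0307 and 0.00759). For mitochondrial DNA copying and transcription, 5 of 15 (33.3%) were lower and 1 higher, with a median of -0.26. In TPM 4 were lower and 1 higher, with a median of -0.11. Tfam, which packs mitochondrial DNA and starts its transcription, measured 50.1 and 61.5 FPKM with and 27.1 and 32.8 FPKM without (-0.89, limma adjusted p = 0.00941), and Ssbp1, which binds its single strands, and Mgme1 (8430406I07Rik), a nuclease for it, were lower too. Of the 28 assembly factors outside the name rule 6 were lower (21.4%) and 1 higher (3.6%), with a median of -0.18. In TPM 3 of 30 were lower and 2 higher, with a median of -0.02. As deposited, Uqcc2 (2900010M23Rik), for complex III, and Cox17, a copper chaperone for complex IV, were at -0.79 and -0.69. Tmem126b, for complex I, was at 0.58.

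Of 18 genes of electron carriers and quinone synthesis 5 were lower (27.8%) and 2 higher (11.1%), with a median of -0.05. In TPM the median was 0.11, with 4 lower and 5 higher. Coq2, which joins the ring and tail of ubiquinone, went from 15.9 and 14.6 to 8.07 and 8.17 FPKM (-0.87, limma adjusted p = 0.00303). Dhodh, which feeds electrons from pyrimidine synthesis, fell by 0.69, and Etfdh, which feeds them from fatty acid oxidation, was higher by 0.67 (limma adjusted p = 0.00553 and 0.0054). Of 10 genes of ATP exchange and uncoupling 3 were lower (30%) and 1 higher (10.0%). Slc25a4, an ADP/ATP carrier, went from 158 and 138 to 87.4 and 79.1 FPKM (-0.83, limma adjusted p = 0.00527), and Slc25a31, its germ cell relative, was lower near the filter. Ckmt1, the mitochondrial creatine kinase, rose from 8.23 and 9.10 to 31.7 and 36.6 FPKM (1.92, limma adjusted p = 0.0015). The tricarboxylic acid cycle, which supplies the electrons, had 3 higher (20.0%) and 2 lower (13.3%) of 15, with a median of 0.05. In TPM 6 were higher and 1 lower, and with library medians set equal 3 were higher and 4 lower, with a median of -0.01. As deposited, Cs, citrate synthase, and Idh2 rose by 0.58 and 0.69 and Suclg2 fell by 0.69. Of 11 tested regulators of nuclear respiratory genes 1 was lower and 0 higher (limma; the counts were the same at an unadjusted p under 0.05, 1 was higher in TPM, and 4 were lower with library medians set equal). This was Myc, from 17.0 and 18.4 to 5.47 and 7.57 FPKM (-1.39, limma adjusted p = 0.00403). The coactivator genes Ppargc1b (0.43) and Pprc1 (-0.28) were not called.

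Respiratory genes are known targets of the factors NRF1, GABP of the ETS family, and YY1, so their promoters were searched for GCGCA, any base and then GCGC (NRF1), CCGGAAG (ETS) and AAGATGGC (YY1) on both strands. None of these motifs lies within another. A promoter of 300 bases was listed for 74 of the 93 nuclear genes, 80 promoters in all. Of these, 42 (52.5%) held at least 1 of the motifs, beside 29.2% of the 11805 promoters of tested genes and 14.7% of all 32851. The NRF1 motif was in 23.8% of them (10.3% of tested genes and 4.6% of all), the ETS motif in 21.2% (17.9% and 8.9%) and the YY1 motif in 15.0% (4.6% and 2.7%). By call, 12 of the 23 promoters of lower genes (52.2%) and 28 of the 52 of genes not called (53.8%) held a motif. Of the 3 promoters of higher genes 2 held one (66.7%). Among all genes tested the shares were 33.4% for lower, 32.3% for not called and 17.1% for higher genes. Sdhd, as printed above, held both the NRF1 and the ETS motif, and Ndufc1 the YY1 motif. The promoters of Cox7a1, Cox7a2l, Cox7b and Ndufb10 held none of these letters in this window.

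MicroRNAs of the miR-290 and miR-302 families are known as abundant in mouse embryonic stem cells and act through Ago2. Those listed with the seed AAGUGCU (bases 2 to 8, in capitals) are shown from RefSeq, GRCm38.p6, because the search for sites used that seed.
miR-291a-3p: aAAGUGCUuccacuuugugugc
miR-294-3p: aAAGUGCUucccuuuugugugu
miR-295-3p: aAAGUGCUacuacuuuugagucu
miR-302b-3p: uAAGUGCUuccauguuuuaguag
miR-302d-3p: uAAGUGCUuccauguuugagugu
The matching site, AGCACTT, was looked for in 1 transcript end per gene, the longest 3′ untranslated region that GENCODE release M21 lists. It was present in 7 of 87 nuclear oxidative phosphorylation genes (8.0%), beside 1960 of 11324 tested genes (17.3%). The regions of the nuclear genes without a site were short, with a median of 192 nt, beside 927 nt in all genes without one. Over all genes the median log2 change was 0.10 with and -0.05 without a site, and 584 of the 1960 with a site were higher and 263 lower. The regions of all genes with a site were longer, with a median of 2497 nt. The change of a gene also moved with transcript length, as given above, and the part of length in this difference was not tested. The 7 respiratory genes were Atp5g1, Atp5sl, Cox4nb, Ndufb2, Ndufb8, Ndufs4 and Sdhd, with changes of -0.67 to -0.11. None of them was called higher, 2 were lower (Atp5g1 and Sdhd), and the median was -0.21 beside -0.16 in the 80 without a site. The sites of Atp5g1, Ndufb2 and Cox4nb start at bases 3675, 3925 and 2269 of their regions. The transcripts measured for these genes had FPKM-weighted lengths of only 635, 498 and 1241 nt. These sites thus lie beyond the average transcript measured, and whether the measured RNA holds them was not tested. The regions listed for Ndufs4 and Ndufb8, of 968 and 1643 nt, are themselves longer than their FPKM-weighted transcripts, of 689 and 635 nt. Whether the measured RNA of Ndufs4 and Ndufb8 holds their sites was not tested either. The site of Sdhd starts at base 10 of a region of 728 nt, and that of Ndufs4, at base 223 of 968 nt, was the only one followed by an A.
Sdhd: cctgggtgcAGCACTTtgattgtg
Ndufs4: acgaaatcagAGCACTTagagttta
Such a match is a description of the sequence and does not show binding.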

How the data were processed

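PolyA RNA of TT-FHAgo2 cells was measured in 2 libraries with and 2 without doxycycline. The authors deposited FPKM per assembled isoform, made with TopHat2 2.0.9 and Cufflinks 2.1.1 on NCBIM37, per the submitters' processing notes, and an annotation of the assembly. How reads matching several copies were counted is not given in the sources used here, so values of genes with near-identical copies are uncertain. The table's library numbers 0 and 1 could not be matched to the labels' replicates, so libraries were treated as unpaired. In the table, 25 symbols (236 isoforms) had been turned into dates and were restored from another deposited table of the doxycycline libraries.

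FPKM was summed per symbol over 141569 isoforms of at least 200 nt whose class in the annotation was a match (=) or a shared junction (j). Isoforms under 200 nt held 98.9% to 99.6% of a library's FPKM. Log2(FPKM + 0.5) went into limma 3.58.1 under R 4.3.3, with a mean-variance trend. The fit had 2 degrees of freedom from the libraries and 3.21 from the prior. Tests were two-sided, and p-values were adjusted by the Benjamini-Hochberg method across the 13207 genes (threshold 0.05). The members and lists were chosen with earlier results of these data known. Named genes were all mitochondrial mRNAs, complex II and Cyc1, and, per complex, the 4 largest changes, the 2 highest levels, and calls in the direction with fewer calls. The paralog groups, 3 assembly factors and 3 genes per list were added, and the other lower genes, Ndufaf1 and the genes with seed sites were named after their values were seen. Of the steps of 1 to 6 reads in transcripts of 500 nt or more, 100% were within 0.1 of a whole read in the number 1 libraries and 42.6% and 43.7% in the number 0 libraries. Fits were tested on simulated data. Promoters (RefSeq, GRCm38.p6) and transcripts (GENCODE M21) were matched by symbol or synonym. Python 3.11.15, numpy 2.4.6, pandas 2.3.3 and matplotlib 3.10.9 were used for the rest.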

Additional observations from a re-analysis of the deposited data

How the results depend on the processing

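The nuclear median was negative in every alternative run, but in TPM it was too small to give a direction. Its size and the counts varied. As deposited there were 4 higher and 23 lower nuclear genes. With no filter on low values there were 1 and 10, with class = isoforms alone 1 and 10, with the most abundant isoform alone 1 and 5, with library medians set equal 2 and 37, and in TPM, with or without the mitochondrial mRNAs, 11 and 12. The higher count was 2 with a minimum of 5 FPKM and 1 with no length minimum. Leaving out each library, which leaves 1 library of a group that is assumed to vary like the others, gave 1 to 2 higher and 6 to 21 lower. The nuclear median moved to -0.002 and -0.005 in TPM and ranged from -0.264 to -0.086 without a library, and the log2 ratio of the summed FPKM, -0.16 as deposited, moved to -0.001 and -0.004 in TPM.

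For the mitochondrial mRNAs, 1 was called higher with a pseudocount of 0.1, a minimum of 5 FPKM, isoforms of at least 300 nt or TPM, and 0 were called lower with no filter and 1 with the most abundant isoform alone. Their median, -0.395 as deposited, was -0.458 with equal medians, -0.235 and -0.238 in TPM, -0.247 with isoforms of at least 300 nt, -0.31 with spanning transcripts added (an alternative chosen after seeing the data) and -0.614 to -0.31 without a library. The ratio of their sums moved from -0.202 to -0.041 and -0.045 in TPM.

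Over all genes, TPM gave 3996 and 3930 higher calls and reversed the median, to 0.101 and 0.099. Class = isoforms alone gave 1277 higher and 1313 lower and the most abundant isoform 1067 and 986, and 1413 to 2485 were lower without a library. The median was -0.015 with no filter, -0.076 with a minimum of 5 FPKM, -0.118 with equal medians and -0.083 to -0.012 without a library. The cause of these shifts was not tested. Some of the alternatives also used fewer libraries or isoforms. Low levels limit Ndufa4l2 and the genes below 1 FPKM, and the 180 nt taken off transcript length limits the shortest transcripts.

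With the replicate block (the library number of the files), 43 nuclear genes were lower, 3 mitochondrial mRNAs were higher and 7 lower, and 4530 of all genes were lower. Deviations of same-numbered libraries from their group mean correlated at 0.46 over all genes and 0.53 over the nuclear genes. The numbers come from the files, match no label, and make only 2 pairs, so they were not taken as pairing.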

Other observations

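Values listed for the mitochondrial ribosomal RNAs did not move together. The libraries were made from polyA RNA, so these values need not give the level of either ribosomal RNA. The RNA of the small mitochondrial ribosomal subunit (MT 70 to 1024, 955 nt, matched by its coordinates) measured 392 and 337 FPKM with doxycycline and 148 and 146 FPKM without, a log2 change of -1.30 (SE 0.108, limma adjusted p = 0.00226). That of the large subunit (MT 1094 to 2675, 1582 nt) measured 83.8 and 106 FPKM with and 90.4 and 89.6 FPKM without (-0.07, SE 0.132, limma adjusted p = 0.702). Both are covered by the spanning transcript of 5016 nt, which was at 81.9 and 49.0 FPKM with and 61.1 and 32.7 FPKM without doxycycline. The 2 genes were chosen after their values were seen, and the difference between them was not tested.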
